A study of Homo sapiens with 8 samples.

Results

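Aminoacyl-tRNA synthetases join each amino acid to its tRNA, and the 35 synthetase genes described here were chosen by name from the 18417 gene symbols that the annotation gave to probesets of the array. Of these genes, 19 encode cytosolic enzymes, whose symbols end in 1 or are FARSA and FARSB, and 16 encode mitochondrial enzymes, whose symbols end in 2. The choice set no condition on a measured value, but earlier results of these data were known when it was made. All 35 genes were measured, by 37 of the 33297 probesets (sets of probes for 1 transcript region), and every one was tested without a filter on low values.

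The cells were DU145, an established human prostate cancer line, grown as 1 line and kept in medium without serum from the day before treatment. In the group called FGF19, cells received 50 ng/ml FGF19, a growth factor that signals through the receptor FGFR4, together with 100 µg/ml heparin for 100 min. In the group called FGF19 + TNFα, FGF19 and heparin at the same doses were given 10 min ahead of 50 ng/ml TNFα, an inflammatory cytokine that activates NFκB, and both stayed on for 90 min more. The TNFα group received 50 ng/ml TNFα for 90 min, and the Mock group was untreated. Each group had 2 Affymetrix Human Gene 1.0 ST arrays, labelled as biological replicates. The methods speak of duplicate samples on duplicate arrays, so a p-value measures only the spread between these arrays, which may in part be technical. Heparin was given with FGF19 on every array and on no other, so FGF19 and heparin cannot be told apart. In RNA from whole dishes, fewer cells of a kind and less RNA per cell cannot be told apart either.

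Synthetases fall into class I and class II, which differ in the fold of the catalytic domain. In human cells several cytosolic enzymes are held together in a multisynthetase complex, and most cytosolic enzymes have a mitochondrial counterpart encoded by a nuclear gene of its own, whereas GARS1 and KARS1 each supply both compartments. Many cytosolic synthetase genes are known targets of ATF4, a transcription factor made when amino acids run short or the endoplasmic reticulum is under stress. Phenylalanyl-tRNA synthetase of the cytosol is built from 2 different subunits, FARSA and FARSB, which are needed together for activity.

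Promoter sequences of the 4 genes whose values are set side by side below, the FARSA and FARSB subunit pair and the divergent HARS1 and HARS2 pair, are shown first. They come from RefSeq on GRCh38.p14, in which 30 of the 35 genes were matched, and each runs 5′ to 3′ up to the base before an annotated start. FARSA lies at chr19:12933712-12933791 on the minus strand, and FARSB at chr2:222656093-222656172 on the minus strand. The stretch between the HARS1 and HARS2 starts lies at chr5:140691371-140691454 and is written on the plus strand, on which HARS2 reads. Capitals mark a match of AAGATGGC, the core of a YY1 type motif, in FARSA and matches of CCGGAAG, an ETS core, or its reverse complement in the HARS1-HARS2 interval.
FARSA: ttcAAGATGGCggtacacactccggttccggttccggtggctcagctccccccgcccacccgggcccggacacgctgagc
FARSB: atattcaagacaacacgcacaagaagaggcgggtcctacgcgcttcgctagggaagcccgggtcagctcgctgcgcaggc
HARS1-HARS2 interval: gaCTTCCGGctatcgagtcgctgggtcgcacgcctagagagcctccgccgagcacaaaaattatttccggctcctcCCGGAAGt

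Array medians of signal lay between 99.5 and 106.6. Correlations of log2 signal between arrays were 0.9671 to 0.9798 within a group, 0.9624 to 0.9814 between groups that differed in TNFα only and 0.9327 to 0.9593 between groups that differed in FGF19. The epithelial markers KRT8, KRT18, KRT19, EPCAM and CDH1 lay between the 83.3 and 98.3 percentiles of signal over all probesets, and the leukocyte marker PTPRC lay at the 9.3 percentile. The other stromal and blood markers measured, PECAM1, COL1A1 and VIM, lay at the 38.8, 51.6 and 95.5 percentiles. The prostate marker KLK3 lay at the 28.9 percentile. Of the 10 markers measured, KRT8, KRT19 and VIM were lower with FGF19 than in Mock, KRT8 by 1.05 and KRT19 by 1.28 on the log2 scale, and the same 3 were lower and CDH1 higher with FGF19 + TNFα than with TNFα. Their part in the results that follow was not tested.

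Whether FGF19 alone altered synthetase RNA was asked by comparing FGF19 with Mock. Of the 35 genes, 18 fell with FGF19, 1 rose and 16 did not pass the test (limma, Benjamini-Hochberg adjusted p under 0.05 over all probesets). Among all 33297 probesets, 32.2% passed in either direction, 14.1% as lower and 18.2% as higher. Probesets with 1 symbol and at least the mean log2 signal of the dimmest synthetase probeset passed more often, 54.3% in either direction, 26.6% as lower and 27.7% as higher of 10153. The median log2 difference was -0.42 over the 35 genes, against 0.08 over all probesets and -0.01 over that brighter set. Both FGF19 arrays lay below both Mock arrays for 26 genes and above them for 6 genes, where 27.8% and 39.1% of all probesets did so.

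Whether FGF19 did the same in cells that also received TNFα was asked by comparing FGF19 + TNFα with TNFα. Here 20 genes fell, 1 rose and 14 did not pass, where 32.4% of all probesets passed in either direction, 12.9% as lower and 19.4% as higher. In the brighter set 24.4% passed as lower. The median log2 difference was again -0.42, against 0.10 over all probesets, and both FGF19 + TNFα arrays lay below both TNFα arrays for 26 genes and above them for 3 genes. Of all probesets, 27.6% and 42.4% did so. The comparisons share no array, but their tests share an estimate of the spread over all 8 arrays, so the calls are not independent. The 18 genes that fell with FGF19 alone all fell with FGF19 + TNFα too, the single gene that rose, FARSB, rose in both, and no gene passed in opposite directions. CARS1 and MARS2 fell only in the second comparison and had log2 differences of -0.35 and -0.51 in the first, with limma adjusted p of 0.068 and 0.051. CARS1 kept its call in 10 of 16 alternatives and lost it without any single array of those compared. The other 14 genes passed in neither.

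The number of genes called depended on single Mock arrays in the first comparison and on single arrays of either group in the second. Without Mock replicate 1, 9 genes passed in FGF19 against Mock, and without Mock replicate 2, 11 did. In FGF19 + TNFα against TNFα, 9 genes passed without TNFα replicate 1 or without FGF19 + TNFα replicate 2, 10 passed without TNFα replicate 2 and 11 without FGF19 + TNFα replicate 1. AARS1, FARSA, MARS1, QARS1, VARS1 and VARS2 kept their calls in both comparisons whichever array was left out.

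FARSA, the catalytic α subunit of phenylalanyl-tRNA synthetase, fell the most. Its signal was 215 and 306 with FGF19, against 758 and 776 in Mock. It was 272 and 251 with FGF19 + TNFα, against 723 and 755 with TNFα. All 4 arrays with FGF19 lay below all 4 arrays without it, and the groups did not overlap. The fall was 2.99-fold with FGF19, a log2 difference of -1.58 (SE 0.17, 95% interval -1.99 to -1.18, limma adjusted p = 0.0029). In the presence of TNFα it was 2.83-fold, a log2 difference of -1.50 (SE 0.17, limma adjusted p = 0.0036).

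FARSB, the β subunit that pairs with FARSA, was the single synthetase gene that rose. Its signal was 2020 and 1860 with FGF19, against 1335 and 1418 in Mock. With FGF19 + TNFα it was 1993 and 1911, against 1337 and 1342 with TNFα. All 4 arrays with FGF19 lay above all 4 without it. FARSB was 1.41-fold higher with FGF19 than in Mock (log2 difference 0.49, SE 0.09, limma adjusted p = 0.0084) and, when TNFα was present, 1.46-fold higher with FGF19 (log2 difference 0.54, SE 0.09, limma adjusted p = 0.0071). The first of these calls was lost without Mock replicate 1, at an adjusted p of 0.055 with a log2 difference of 0.45. RNAs for the subunits of 1 enzyme thus differed in the direction of their change in both comparisons.

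VARS1, the cytosolic valyl-tRNA synthetase, had signals of 231 and 328 with FGF19, against 755 and 691 in Mock, and of 268 and 320 with FGF19 + TNFα, against 731 and 717 with TNFα. It was 2.62-fold lower in the first comparison and 2.47-fold lower in the second, with log2 differences of -1.39 and -1.31 (SE 0.18 each, limma adjusted p = 0.0037 and 0.0049). Its 2 probesets on the array held identical values and are counted as 1 measurement. MARS1, the cytosolic methionyl-tRNA synthetase that charges initiator tRNA as well, had signals of 913 and 1223 with FGF19, against 2250 and 2284 in Mock. With FGF19 + TNFα its signals were 1109 and 1123, against 2333 and 2321 with TNFα. MARS1 fell 2.15-fold and 2.09-fold (log2 differences -1.10 and -1.06, SE 0.14 each, limma adjusted p = 0.0036 and 0.0045). FARSA, VARS1 and MARS1 were the 3 synthetase genes that fell at least 2-fold, in both comparisons. Of all probesets, 2.8% and 2.54% did so, and of the brighter set 5.12% and 4.38%.

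QARS1, the cytosolic glutaminyl-tRNA synthetase, had signals of 493 and 603 with FGF19, against 972 and 982 in Mock, and of 518 and 535 with FGF19 + TNFα, against 876 and 911 with TNFα. Its log2 differences were -0.84 and -0.76 (SE 0.11 each, limma adjusted p = 0.0040 and 0.0057), and the arrays with FGF19 again lay below all the others. AARS1, the cytosolic alanyl-tRNA synthetase, fell by 0.69 and 0.68 on the log2 scale, and YARS1, the tyrosyl enzyme, by 0.61 and 0.59. Smaller falls that passed in both comparisons were those of KARS1 (log2 differences -0.56 and -0.44), HARS1 (-0.47 and -0.31), SARS1 (-0.44 in each) and RARS1 (-0.36 and -0.42), the lysyl, histidyl, seryl and arginyl enzymes. RARS1 passed at a limma adjusted p of 0.042 with FGF19 against Mock and lost that call in 10 of 16 alternatives, among them quantile (0.086) and cyclic loess (0.051) normalization. HARS1 passed at 0.049 in the presence of TNFα and lost that call in 8 of 16. In FGF19 against Mock HARS1 lost its call without either Mock array and with only the groups compared (limma adjusted p = 0.060). RARS1 lost its call in the presence of TNFα without any single array of those compared. YARS1, KARS1 and SARS1 also lost calls in both comparisons without single arrays among those compared.

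**Figure D1:**
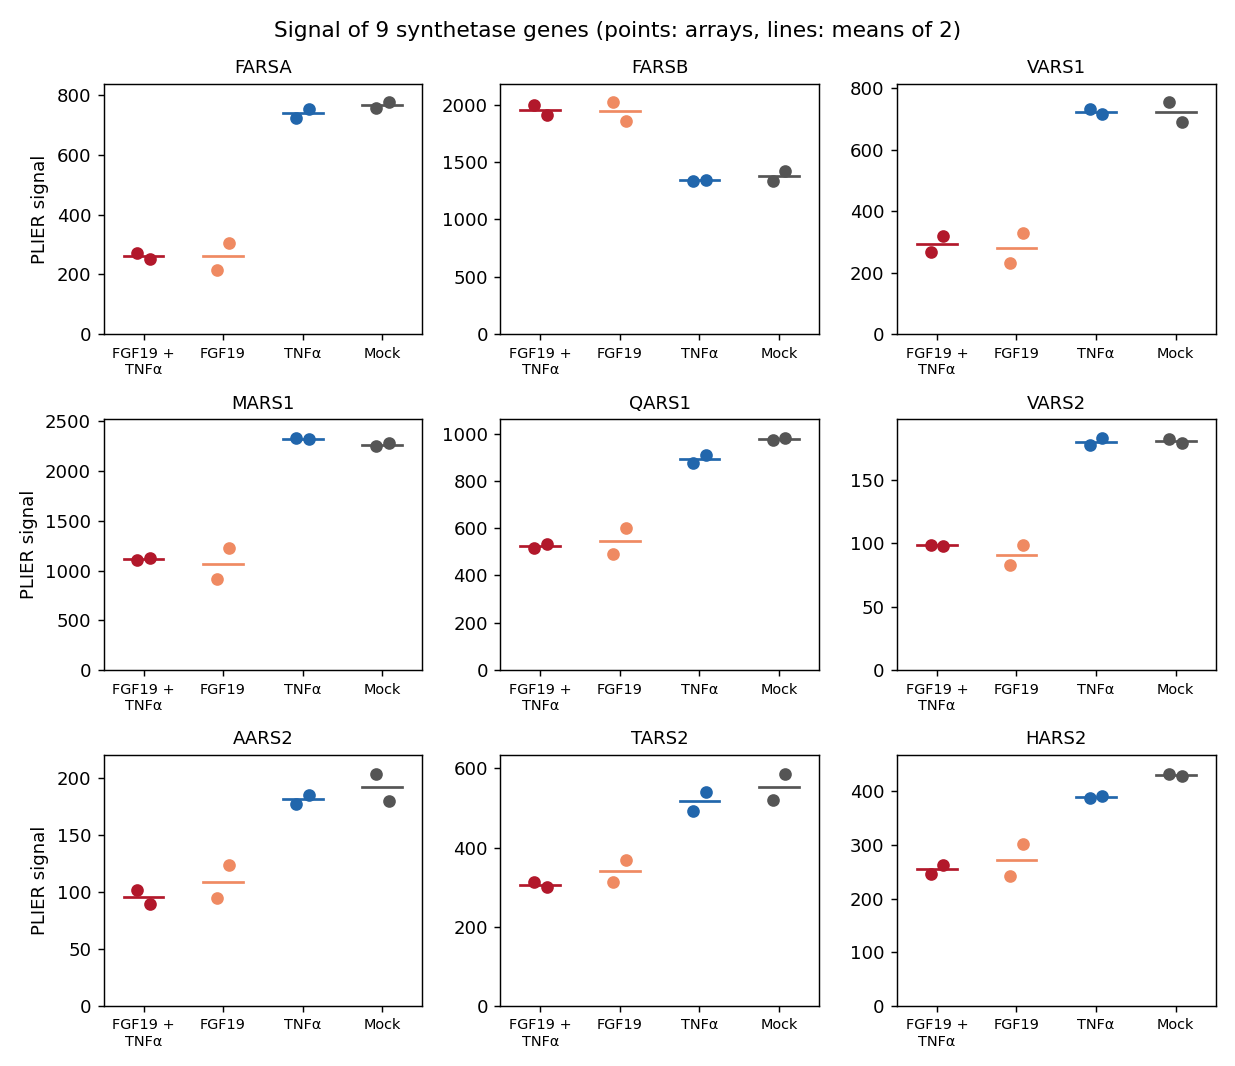
Signal (linear PLIER units, vertical axes from 0) of 9 synthetase genes on each of the 8 arrays, with FGF19 + TNFα, FGF19, TNFα and Mock from left to right, points for arrays and lines for means of 2. For 8 genes every array with FGF19 lies below every array without it, and for FARSB, at 1860 to 2020 with FGF19 and 1335 to 1418 without, every such array lies above.

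Among the mitochondrial genes, 8 of 16 fell with FGF19 against Mock and 9 of 16 with FGF19 + TNFα against TNFα, where 14.1% and 12.9% of all probesets and 26.6% and 24.4% of the brighter set passed as lower, and none rose. Without Mock replicate 1 or 2 the first count was 3 or 4. The second was 3 without TNFα replicate 1, TNFα replicate 2 or FGF19 + TNFα replicate 2, and 4 without FGF19 + TNFα replicate 1. VARS2, the mitochondrial valyl-tRNA synthetase, fell the most on average. Its signal was 83.2 and 98.9 with FGF19, against 182 and 179 in Mock, and 99.1 and 98.2 with FGF19 + TNFα, against 178 and 183 with TNFα. The log2 differences were -0.995 and -0.87 (SE 0.10 each, limma adjusted p = 0.0028 and 0.0037). VARS2 was also the dimmest of the 35 genes, at the 55.3 percentile of all probesets, and its other probeset gave -0.99 and -0.86. The stromal marker COL1A1 lay close below, at the 51.6 percentile, and how near such signals lie to background was not tested.

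AARS2, the mitochondrial alanyl-tRNA synthetase, had signals of 94.3 and 123 with FGF19, against 203 and 180 in Mock, and of 102 and 89.2 with FGF19 + TNFα, against 177 and 185 with TNFα. Its log2 differences were -0.83 and -0.93 (SE 0.15 each, limma adjusted p = 0.0097 and 0.0077). Without Mock replicate 1 the first call was lost, at an adjusted p of 0.061. TARS2, the mitochondrial threonyl-tRNA synthetase, had signals of 312 and 369 with FGF19, against 520 and 586 in Mock, and of 314 and 299 with FGF19 + TNFα, against 492 and 542 with TNFα. It fell by 0.70 and 0.75 on the log2 scale (SE 0.12 each, limma adjusted p = 0.0077 and 0.0071), and the first call was lost without Mock replicate 2, at 0.0504. For both genes the arrays with FGF19 did not overlap the arrays without it.

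HARS2, the mitochondrial histidyl-tRNA synthetase, had signals of 242 and 302 with FGF19, against 433 and 429 in Mock, and of 246 and 263 with FGF19 + TNFα, against 388 and 392 with TNFα. It fell by 0.67 and 0.62 on the log2 scale (SE 0.12 each, limma adjusted p = 0.0089 and 0.013). Its first call was lost without Mock replicate 1, at 0.052, and its second without any 1 of the 4 arrays compared, at 0.053 to 0.063. HARS1, whose start lies across the short interval printed above, fell in both comparisons as well. Among the remaining mitochondrial genes, CARS2 (-0.58 and -0.61), FARS2 (-0.55 and -0.50), SARS2 (-0.45 and -0.53) and YARS2 (-0.42 in each), the cysteinyl, phenylalanyl, seryl and tyrosyl enzymes, fell in both comparisons. CARS2, SARS2 and YARS2 lost the first call without either Mock array, SARS2 and YARS2 also without FGF19 replicate 1, and all 3 with only the groups compared. CARS2, FARS2 and YARS2 lost the second call without any 1 of the 4 arrays compared, and SARS2 without 3 of them, at limma adjusted p of 0.052 to 0.105. FARS2 acts as a single chain, unlike FARSA and FARSB.

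MARS2, the mitochondrial methionyl-tRNA synthetase, passed in 1 comparison only. Its signal was 146 and 201 with FGF19, against 244 and 241 in Mock, and 138 and 134 with FGF19 + TNFα, against 209 and 229 with TNFα. The FGF19 arrays lay below the Mock arrays without passing the test, and the second comparison passed with a log2 difference of -0.69 (SE 0.16, limma adjusted p = 0.020). That call was lost without any 1 of the 4 arrays compared, at 0.061 to 0.095.

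**Figure D2:**
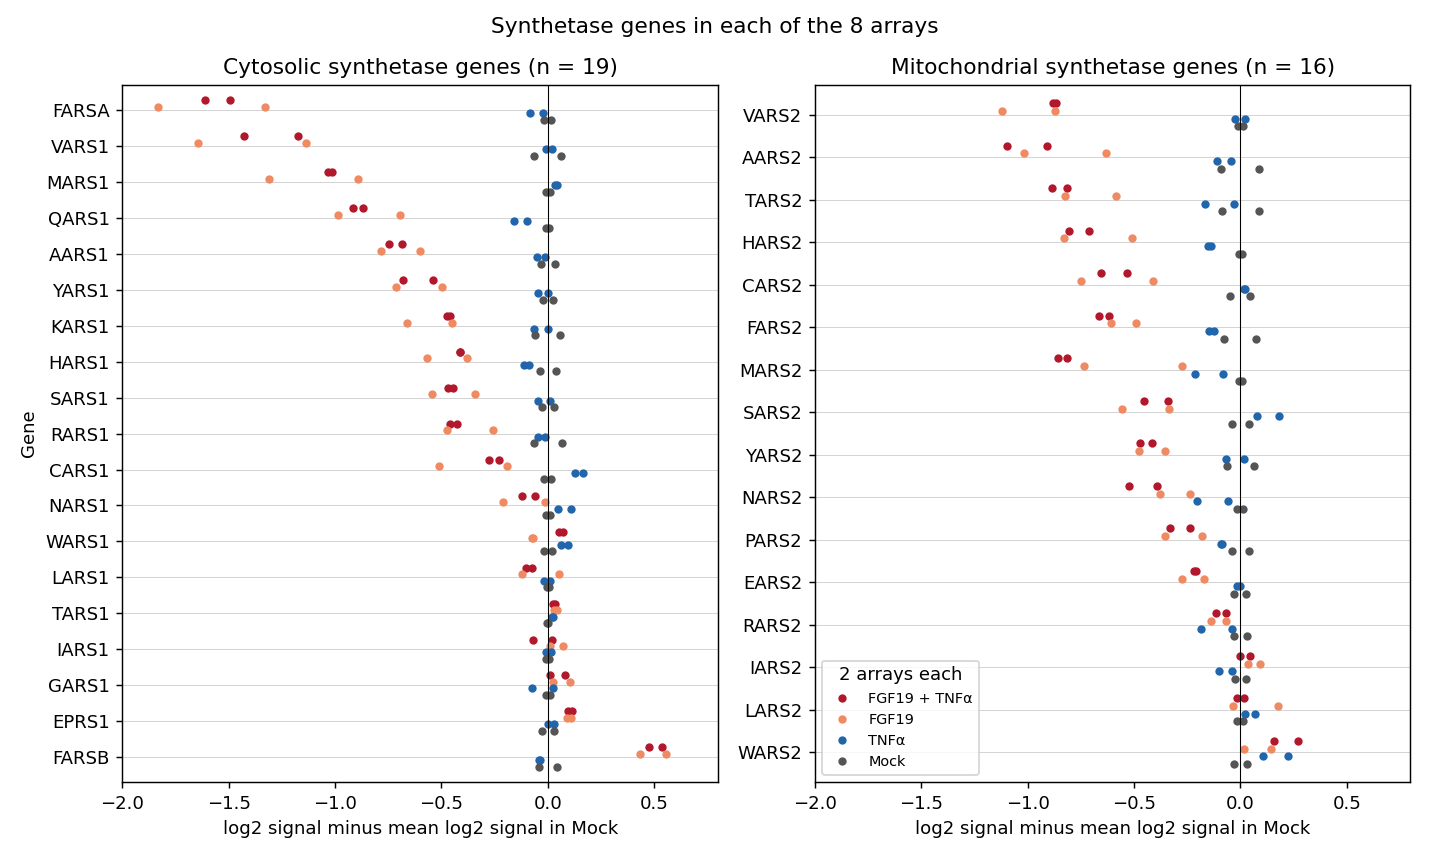
Each of the 35 synthetase genes on each of the 8 arrays, as log2 signal minus the mean log2 signal in Mock (horizontal axis), with cytosolic genes on the left, mitochondrial genes on the right and the groups FGF19 + TNFα, FGF19, TNFα and Mock from top to bottom in each row. Points of the groups with FGF19 extend left to -1.83 for FARSA and right to 0.55 for FARSB, while the TNFα points stay near 0.

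Of the 14 genes that passed in neither comparison, 3 had differences over 0.2 in size in 1 or both. NARS2, PARS2 and EARS2, the mitochondrial asparaginyl, prolyl and glutamyl enzymes, had log2 differences of -0.31, -0.27 and -0.22 with FGF19 against Mock and of -0.32, -0.20 and -0.21 with FGF19 + TNFα against TNFα. Each lay lower on both arrays with FGF19 than on both arrays of its control in each comparison. The other 11 genes had differences under 0.2 in size on the log2 scale in both comparisons. They were the cytosolic EPRS1, GARS1, IARS1, LARS1, NARS1, TARS1 and WARS1 and the mitochondrial IARS2, LARS2, RARS2 and WARS2. Their differences ran from -0.11 to 0.10 in the first comparison and from -0.17 to 0.09 in the second, with 95% intervals reaching from -0.35 to 0.31 and from -0.40 to 0.29.

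TARS1, the cytosolic threonyl-tRNA synthetase and the brightest of the 35 genes, at the 99.2 percentile, had the smallest SE of the 35. Its signal was 4147 and 4183 with FGF19, against 4060 and 4069 in Mock, and 4156 and 4132 with FGF19 + TNFα, against 4118 and 4139 with TNFα. The log2 differences were 0.04 and 0.01 (SE 0.07 each, limma adjusted p = 0.75 and 0.97). NARS1, the cytosolic asparaginyl enzyme, which passed in neither comparison either, had more widely spaced signals of 3288 and 3766 with FGF19, against 3833 and 3776 in Mock. AARS1, at the 98.2 percentile, had signals of 2250 and 2555 with FGF19, against 3795 and 3969 in Mock.

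Set by enzyme family, 8 of 19 class I genes fell with FGF19 against Mock and 10 of 19 with FGF19 + TNFα against TNFα. Of 16 class II genes, 10 fell and 1 rose in each. Of all probesets, 14.1% and 12.9% passed as lower, and of the brighter set 26.6% and 24.4%. Without Mock replicate 1, 4 class I and 5 class II genes passed in the first comparison, and without Mock replicate 2, 5 and 6. Without 1 of the 4 arrays compared, 4 to 5 class I and 5 to 6 class II genes passed in the second. Of the 7 synthetases of the multisynthetase complex measured here, 4 fell in both comparisons, namely MARS1, QARS1, RARS1 and KARS1. EPRS1, a single chain that charges 2 amino acids, IARS1 and LARS1 passed in neither. EPRS1 had log2 differences of 0.10 and 0.09. Of 3 listed genes for scaffold proteins of the complex, AIMP1, AIMP2 and EEF1E1, only AIMP1 was measured. AIMP1 had log2 differences of 0.27 and 0.23 (limma adjusted p = 0.059 and 0.086). Outside the complex, 6 of 12 cytosolic genes fell and 1 rose in the first comparison, and 7 fell and 1 rose in the second. Genes of the complex that passed were 2 without Mock replicate 2 in the first comparison and 2 without any 1 of the 4 arrays compared in the second. Those outside it were 3 without Mock replicate 1 in the first and 4 to 5 without 1 of those 4 arrays in the second.

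The 12 cytosolic genes assigned here to a list of ATF4 targets held all 7 cytosolic genes that passed in neither comparison. That list was drawn up for this report, and ATF4 binding was not measured. Of the 12, AARS1, MARS1, SARS1 and YARS1 fell in both comparisons and CARS1 in the second. EPRS1, GARS1, IARS1, LARS1, NARS1, TARS1 and WARS1 passed in neither. The median log2 difference of the 12 was -0.09 with FGF19 against Mock and -0.13 with FGF19 + TNFα against TNFα. All 7 other cytosolic genes passed in both comparisons, with FARSA, HARS1, KARS1, QARS1, RARS1 and VARS1 lower and FARSB higher, and their medians were -0.56 and -0.44. Of these 7, 4 passed in the first comparison without either Mock array and 4 in the second without any 1 of the 4 arrays compared. Of the 12, 2 passed in the first without Mock replicate 1, and 2 to 3 passed in the second without 1 of those 4 arrays. Of all probesets, 32.2% and 32.4% passed in either direction, and of the brighter set 54.3% and 51.6%. The lists also differed in signal, at the 91.1 to 99.2 percentiles for the 12 and the 77.6 to 94.9 percentiles for the 7 others. The difference between these lists was not tested, nor was the part of signal in it.

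For 13 amino acids the cytosolic and the mitochondrial enzyme were each encoded by 1 measured gene of their own. Phenylalanine, with FARSA and FARSB in the cytosol, and glutamate and proline, both charged there by EPRS1, were left out of these pairs. With FGF19 against Mock both enzymes fell for 5 amino acids, alanine, histidine, serine, tyrosine and valine. The cytosolic enzyme alone passed for methionine and arginine, the mitochondrial enzyme alone for cysteine and threonine, and neither for asparagine, isoleucine, leucine and tryptophan. With FGF19 + TNFα against TNFα methionine and cysteine joined those with both enzymes lower, which made 7, and the same 4 amino acids had neither. Only valine kept both calls under every alternative in the first comparison, and only alanine and valine in the second. Of single probesets, 14.1% and 12.9% of all and 26.6% and 24.4% of the brighter set passed as lower. Among these 13 pairs threonine was split most widely, with TARS2 at -0.70 and -0.75 and TARS1 at 0.04 and 0.01 on the log2 scale. The difference within a pair was not tested.

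**Figure D3:**
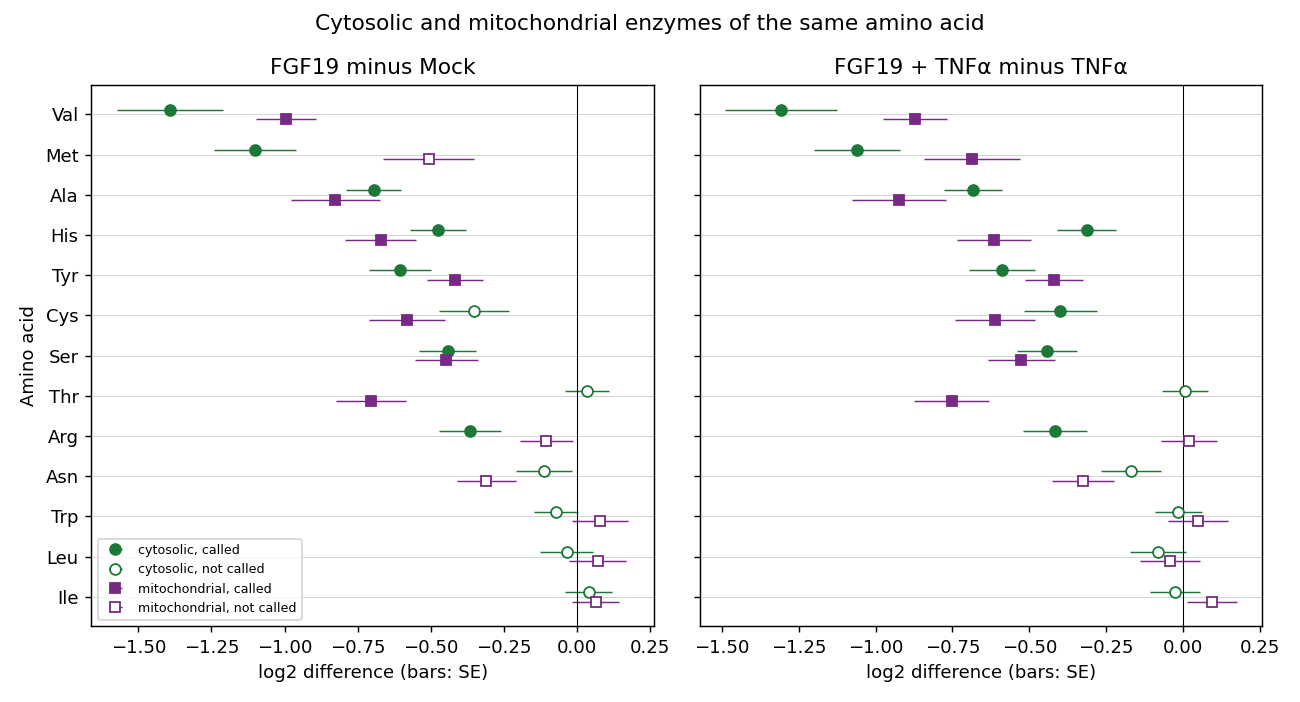
Log2 differences (horizontal axes, bars for SE) of the cytosolic (circles) and mitochondrial (squares) enzyme of 13 amino acids, FGF19 minus Mock on the left and FGF19 + TNFα minus TNFα on the right, filled where the limma test passed. Valine lies farthest left, at -1.39 and -0.995 in the left panel, and isoleucine, leucine, tryptophan and asparagine have open symbols in both panels.

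Whether TNFα itself altered these genes was asked by comparing TNFα with Mock, and FGF19 + TNFα with FGF19. In TNFα against Mock no synthetase gene passed, and 0 had an unadjusted limma p under 0.05, where 1.06% of all probesets passed. The log2 differences ran from -0.15 for MARS2 to 0.17 for WARS2, the smallest limma adjusted p was 0.53, and the 95% intervals reached from -0.53 to 0.45. Both TNFα arrays lay below both Mock arrays for 10 genes and above them for 8, where 30.9% and 20.6% of all probesets did so. FARSA was among the 10, at 723 and 755 with TNFα against 758 and 776 in Mock. VARS1 overlapped, at 731 and 717 against 755 and 691. In FGF19 + TNFα against FGF19 no gene passed either, with 0 at an unadjusted limma p under 0.05, where 0.282% of all probesets passed. Differences ran from -0.33 for MARS2 to 0.13 for WARS2 and WARS1, the smallest limma adjusted p was 0.91, and the intervals reached from -0.71 to 0.53. Differences inside these intervals are compatible with the arrays.

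The difference between the FGF19 effects with and without TNFα, tested as the interaction, passed for 0 of the 35 genes and for 0% of all probesets. None of the 35 had an unadjusted limma p under 0.05, and the smallest adjusted p was 0.98. The interaction ran from -0.18 for MARS2 to 0.16 for HARS1 on the log2 scale, with 95% intervals that reached from -0.72 to 0.71. For FARSA it was 0.08 and for FARSB 0.05. CARS1 and MARS2, which passed in 1 of the comparisons, are therefore not shown to differ between them.

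**Figure D4:**
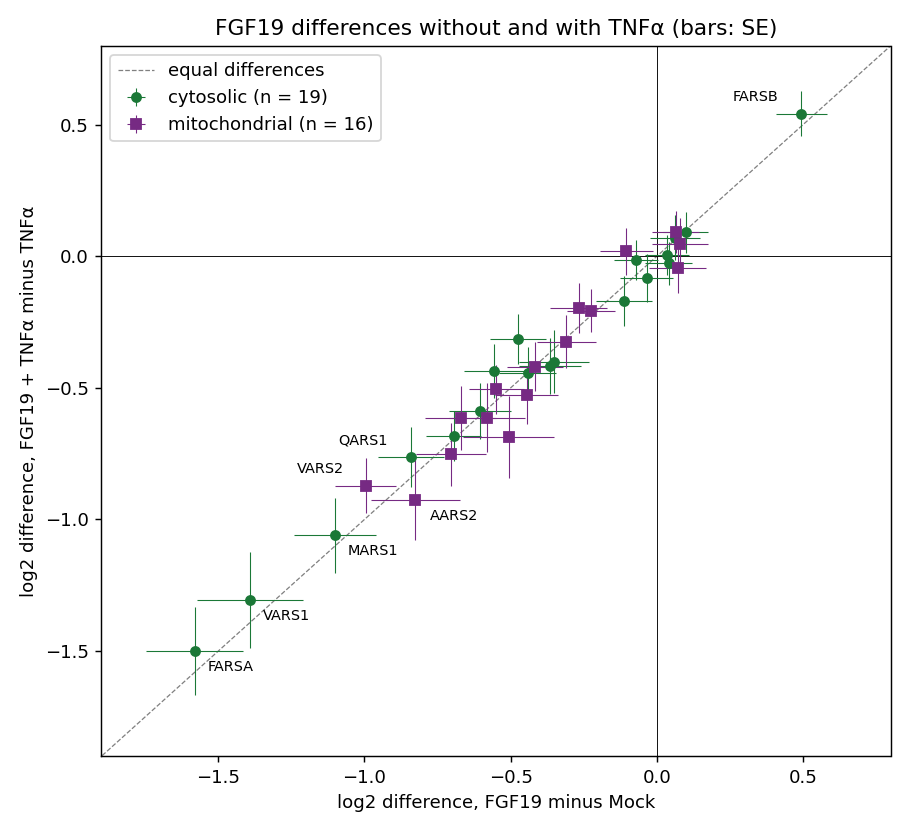
Log2 difference of each of the 35 genes for FGF19 minus Mock (horizontal axis) and for FGF19 + TNFα minus TNFα (vertical axis), with bars for SE, circles for cytosolic and squares for mitochondrial genes and a dashed line where the differences are equal. The points follow the line, with FARSA at -1.58 and -1.50 at the lower left and FARSB at 0.49 and 0.54 alone at the upper right.

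In these genes the FGF19 arrays differed from each other. In 31 of the 35 genes the same FGF19 array, replicate 1, had the lower signal, with a median log2 difference between the arrays of -0.20, whereas over all probesets that median was 0.00. In the FGF19 + TNFα group replicate 1 was the lower for 15 of 35 genes, with a median of 0.02. Relative to the Mock mean, the cytosolic genes had a median log2 value of -0.51 and -0.26 on the FGF19 arrays and -0.41 on each FGF19 + TNFα array. The mitochondrial genes had -0.52 and -0.31 on the FGF19 arrays and -0.43 and -0.49 on the FGF19 + TNFα arrays. The size of the falls with FGF19 alone therefore rested on which array was used, while the direction of the group medians did not.

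Among neighbours of these enzymes in tRNA charging, 9 of 12 listed genes were measured, and 3 fell with FGF19 against Mock and 4 with FGF19 + TNFα against TNFα, where 14.1% and 12.9% of all probesets and 26.6% and 24.4% of the brighter set passed as lower. The difference from the brighter set was not tested. GATB and GATC are subunits of the mitochondrial amidotransferase that makes glutaminyl-tRNA from tRNA charged by EARS2, and they stand in for a mitochondrial glutaminyl enzyme. GATB fell by 0.41 and 0.46 and GATC by 0.46 and 0.60 on the log2 scale, while QRSL1, the other subunit, had log2 differences of 0.07 and 0.12 that did not pass. DTD1, a deacylase that clears D-amino acids from tRNA, fell by 0.61 and 0.56. GTPBP2, a ribosome rescue factor, fell in the second comparison by 0.46. XPOT, the tRNA exporter, had log2 differences of 0.10 and 0.19 that did not pass. Single arrays counted here as well, since 1 gene of the list passed in the first comparison without either Mock array or FGF19 replicate 1. In the second, 0 passed without TNFα replicate 1, 1 without TNFα replicate 2 or FGF19 + TNFα replicate 2 and 2 without FGF19 + TNFα replicate 1.

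Of 24 listed ATF4 target and amino acid supply genes, all measured, 13 fell and 3 rose with FGF19 against Mock, and 14 fell and 1 rose with FGF19 + TNFα against TNFα. Of all probesets, 14.1% and 12.9% passed as lower and 18.2% and 19.4% as higher, and of the brighter set 26.6% and 24.4% passed as lower. ATF4 RNA itself was 1405 and 1562 with FGF19, against 2453 and 2353 in Mock, and 1570 and 1523 with FGF19 + TNFα, against 2447 and 2467 with TNFα. It fell by 0.70 and 0.67 on the log2 scale (SE 0.09 each, limma adjusted p = 0.0036 and 0.0045). SHMT2, which makes glycine from serine in mitochondria, fell by 1.33 and 1.31. The glutamine transporter SLC1A5 fell by 0.94 and 1.00, SLC3A2, the heavy chain of amino acid transporters, by 0.84 and 0.88, and CHAC1, a glutathione-degrading enzyme, by 0.77 and 1.16. These 5 genes kept their calls whichever array was left out.

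Members of the same list went other ways. ASNS, the asparagine synthetase that is a classical ATF4 target, had signals of 2012 and 2037 with FGF19, against 1969 and 2089 in Mock, and log2 differences of -0.00 and -0.03. ALDH1L2, a mitochondrial folate enzyme, rose by 1.01 and 0.99 on the log2 scale, with signals of 472 and 345 with FGF19, against 191 and 212 in Mock. TRIB3 and DDIT3, which respond to ATF4 under stress, fell by 0.66 and 0.74 in the first comparison and by 0.69 and 0.88 in the second, but each of these calls was lost without 1 or more of the arrays compared. NUPR1 fell with FGF19 alone by 0.63 and had -0.04 in the second comparison, whereas STC2 had -0.21 in the first and fell by 0.95 in the second. The interaction did not pass for either, with limma adjusted p of 0.81 and 0.74. The count of the list that passed was 8 in the first comparison without either Mock array and 10 without FGF19 replicate 1. In the second it was 8 without TNFα replicate 1 or FGF19 + TNFα replicate 2 and 9 without TNFα replicate 2.

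**Figure D5:**
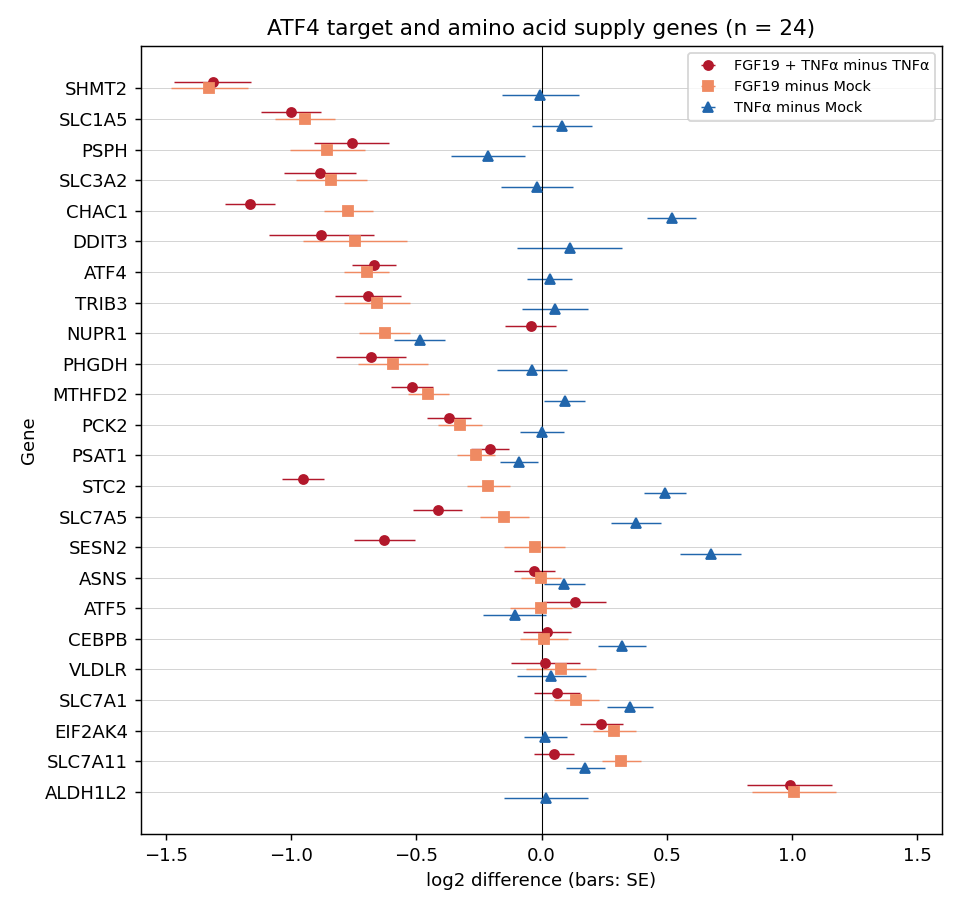
Log2 differences (horizontal axis, bars for SE) of 24 ATF4 target and amino acid supply genes, with circles for FGF19 + TNFα minus TNFα, squares for FGF19 minus Mock and triangles for TNFα minus Mock. SHMT2 lies farthest left at -1.33 with FGF19, ASNS lies close to 0 and ALDH1L2 lies farthest right at 1.01.

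The promoters of 30 synthetase genes were searched on both strands over 250 bases before each annotated start. VARS1, VARS2, AARS2 and YARS1, which fell in both comparisons, and LARS1, which passed in neither, had no matched promoter. The search thus covered 14 of the 18 genes that fell in both and 13 of the 14 that passed in neither. CCGGAAG, the ETS core, was in 16 of the 30, against 10.2% of all 27305 genes of the table. It was in 8 of the 14 searched genes that fell in both and 6 of the 13 searched that passed in neither. TGATGNAA, a form of the amino acid response element to which ATF4 binds, was in 4 of 30, against 3.89% of all genes. An NRF1 type palindrome was in 4 of 30 and 6.2% of all genes, CACGTG, the E-box, in 3 and 7.73%, AAGATGGC in 2 and 1.64%, and an NFκB type motif in 0 and 0.645%. Matches of different motifs did not overlap in these promoters. Among the searched genes the G and C content had a median of 60.8% in those that fell in both and 61.2% in those that passed in neither.

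The stretches around the TGATGNAA matches of 2 genes that fell, AARS1 and YARS2, and of 2 that passed in neither, IARS1 and GARS1, are printed because the motif stood in both kinds of gene. They lie at chr16:70289674-70289705 (AARS1, minus strand), chr12:32756075-32756106 (YARS2, minus strand), chr9:92293698-92293729 (IARS1, minus strand) and chr7:30594833-30594864 (GARS1, plus strand) in GRCh38.p14, from RefSeq, with the match or its reverse complement TTNCATCA in capitals.
AARS1: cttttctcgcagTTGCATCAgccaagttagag
YARS2: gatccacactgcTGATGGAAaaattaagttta
IARS1: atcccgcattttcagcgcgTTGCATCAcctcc
GARS1: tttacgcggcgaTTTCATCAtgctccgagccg

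AARS1 fell by 0.69 and 0.68 and YARS2 by 0.42 and 0.42 on the log2 scale, whereas IARS1 had log2 differences of 0.04 and -0.03 and GARS1 of 0.06 and 0.07. AARS1 and IARS1 hold the same letters TTGCATCA within their matches. HARS1 and HARS2, which face away from each other across 84 bases with 2 ETS cores, fell together, HARS1 by 0.47 and 0.31 and HARS2 by 0.67 and 0.62. A match is a description of the letters and not of binding, and its part in these differences was not tested.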

How the data were processed

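RNA of DU145 cells was measured on 8 arrays in 4 groups of 2, taken from the sample labels. Per the labels, the deposited values, a linear intensity for each of 33297 probesets, were summarized by the authors by PLIER in Affymetrix Expression Console. Tool versions and the normalization used are not given in the sources read here. No column was left out. The paper's methods give lower heparin and TNFα doses than the labels, whose doses are printed here. For log2 values, 240 zeros in the deposited intensity were replaced by 0.01, the lowest signal above 0, and nothing further was normalized. An array signal is not a count, and precision is limited by having 2 arrays a group.

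All probesets were fitted together, with group as the only term, in limma 3.58.1 (R 4.3.3, lmFit then eBayes). P-values were adjusted by Benjamini-Hochberg over all probesets within a comparison, with a threshold of 0.05. Fold changes are differences of mean log2 signal. Symbols came from the platform annotation, which gives 1 symbol to 19460 probesets, several to 1754 and none to 12083, and 19429 were brought up to date through Entrez identifiers and RefSeq. A gene was represented by its brightest probeset. Values on every array are given for the 4 cytosolic and 4 mitochondrial genes with the largest mean difference among those called in both FGF19 comparisons, any called the other way, and the brightest and dimmest gene. AARS1, MARS2, NARS1 and the named genes of the related lists were added after their values were seen. The genes, lists and motifs were chosen with earlier results of these data known. Scripts were tested on simulated data. Alternatives tried were each array left out, the replicate number as a block, only the groups compared, a trended and robust prior, the second probeset, the dimmest 20 percent of probesets removed, 16 added to the signal, and normalization by quantiles or by cyclic loess. Figures were drawn with matplotlib 3.10.9 in Python 3.11.15.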

Additional observations from a re-analysis of the deposited data

How the results depend on the processing

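No difference changed direction among the called genes. Of 19 genes called in FGF19 against Mock, 7 kept their calls under all alternatives, and of 21 in FGF19 + TNFα against TNFα, 9 did. The count of called genes ranged from 9 to 22 in each comparison when single arrays were left out. Under the other alternatives it was 13, with only the groups compared, to 23, with a trended and robust prior, in the first and 20 to 22 in the second, and the comparisons for TNFα and the interaction stayed at 0. With the replicate number as a block the counts were 19 and 20, the lost call being that of HARS1 (limma adjusted p = 0.056). Deviations of same-numbered arrays correlated at -0.02 to 0.20 over all probesets, with the highest value between FGF19 and FGF19 + TNFα. Whether the numbers pair the arrays is not settled by these values. Quantile and cyclic loess normalization gave a median over all probesets of -0.00 and 0.00 in the first comparison and of 0.01 in the second, against 0.08 and 0.10 as deposited. With 2 arrays a group, small differences cannot be resolved.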
